A study of Drosophila melanogaster with 2 samples.

Results

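Of 3810 chromatin immunoprecipitation peaks of a CG31224-eGFP fusion protein in Drosophila melanogaster embryos, 238 had their summit just inside a protein-coding gene, 1 to 500 bp downstream of the nearest transcription start site (TSS), at promoters whose coding TSSs within 500 bp all lay on 1 strand. A summit is the base that the authors' peak caller gave as the top of a peak. The 238 summits were 6.25% of the list and 21.2% (95% Wilson interval 18.9 to 23.7%) of the 1124 summits at such one-directional promoters, the other 886 being at or upstream of the nearest TSS. Another 601 summits lay between or beside coding TSSs on both strands, and 2085 had no coding TSS within 500 bp. The rule used position only and not signal, replicate lists, sequence or gene. Position itself goes with location in exons and with base composition. At the members' distances from all coding TSSs the mean GC content was 44.9%, against 39.2% at the upstream summits' distances. In the replicates' own lists 128 of 714 one-directional summits (17.9%, 15.3 to 20.9%) in replicate 1 and 135 of 800 (16.9%, 14.4 to 19.6%) in replicate 2 were downstream. All intervals here cover only the counting of peaks.

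The samples were whole embryos, 0 to 24 h old, of 1 transgenic strain carrying the CG31224-eGFP insertion, and both of them carried it. Chromatin was sonicated to 200 to 800 bp and the fusion was precipitated with an antibody to its green fluorescent protein part, in 2 biological replicates that form a single group. The control was not analysed here, nor any precipitation from embryos that lack the fusion, and no value below is a difference from background. Whole embryos over this span mix many cell types and stages, so binding in few cells and weak binding in many cannot be told apart. The main list was deposited for both replicates together, and each replicate also had a list of its own.

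RNA polymerase II starts transcription of a protein-coding gene at the TSS, where the core promoter positions it. The DNA just downstream is the start of the transcribed unit: it holds the 5' untranslated region and often the beginning of the first intron, and in flies it is where polymerase can pause and where the first nucleosome of the gene tends to sit. A summit there lies over transcribed DNA, while the nucleosome-poor stretch that many promoter-binding factors occupy is on the upstream side.

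The sequences below are shown because they are the DNA under the strongest of the 238 summits. All are read 5' to 3' on the strand of the gene, from the RefSeq copy of the Release 6 genome, which is the assembly of the dm6 lists, with 1-based coordinates. Capitals mark a match, on either strand, to any of 12 short elements. Among these were TATAAA, found within 50 bp of 15.5% of all 19276 coding TSSs, the initiator letters TCAGT (31.7%), CGATA (23.6%), GCCAT (16.8%) and CACACA (8.46%). Of the 20 strongest members, 5 are shown by 101 bases with the summit in the middle, chosen because no base of the window is in an untranslated part of an exon.
CG31612, chr2L:21794922-21795022, - strand, summit at +475: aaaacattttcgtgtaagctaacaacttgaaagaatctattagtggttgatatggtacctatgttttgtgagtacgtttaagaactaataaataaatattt
aru, chr2L:867474-867574, - strand, summit at +489: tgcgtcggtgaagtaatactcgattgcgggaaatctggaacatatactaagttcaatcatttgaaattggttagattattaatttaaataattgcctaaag
CG8128, chrX:15697920-15698020, + strand, summit at +465: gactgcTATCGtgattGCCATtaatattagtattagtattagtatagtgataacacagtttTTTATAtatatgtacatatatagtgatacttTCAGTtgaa
Cftr, chr3R:24543195-24543295, - strand, summit at +180: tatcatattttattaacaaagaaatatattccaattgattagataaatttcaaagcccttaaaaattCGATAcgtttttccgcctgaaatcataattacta
CG10311, chr3R:16356535-16356635, - strand, summit at +430: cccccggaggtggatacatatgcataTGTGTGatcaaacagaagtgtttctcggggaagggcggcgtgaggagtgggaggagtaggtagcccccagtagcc
Of the 4 strongest of all, 3 are shown by the 29 bases around the summit.
CG9331, chr2L:20823892-20823920, + strand, summit at +264: ccaactggtatttcgagcaggcgcacagc
CG9331, chr2L:20822937-20822965, + strand, summit at +123: aatgacgcatcgtgttttggtaacaggaa
ph-p, chrX:2137873-2137901, - strand, summit at +484: tttactTATCGtaacattgTTTATAtgta
For contrast, 2 strong summits upstream of one-directional TSSs had these windows.
t-cup, chr2L:12497729-12497829, - strand, summit at -446: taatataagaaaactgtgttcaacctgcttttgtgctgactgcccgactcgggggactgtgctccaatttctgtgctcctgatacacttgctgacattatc
alpha-Est8, chr3R:7515851-7515951, - strand, summit at -231: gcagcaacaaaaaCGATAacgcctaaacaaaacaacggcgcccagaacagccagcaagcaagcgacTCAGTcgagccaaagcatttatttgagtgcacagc
Among the 5 long windows, those of CG31612, CG8128 and Cftr were rich in A and T, with GC contents of 26.7%, 25.7% and 23.8%, while that of CG10311 had 57.4%. The capitals show no element that all 5 windows share.

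The next set is shown because these summits carried a promoter element at or beside the TSS. ATCGAT is the core of the DNA replication-related element (DRE), the site of the factor DREF at many housekeeping promoters, and it overlaps CGATA when an A follows. It lay within 50 bp of 11.1% of all coding TSSs. GGTCACAC is the core of Motif 1, the site of M1BP, found at 4.67% of them.
RpS15Aa, chrX:13337696-13337724, - strand, summit at +11: gtccggctaacTATCGATAggcacgttga
CG2924, chrX:2270740-2270768, - strand, summit at +5: gcggACTGAttcATCGATgaccaacgtat
fz3, chrX:769940-769968, + strand, summit at +25: aTATCGATAcctggctgctcTATCGATAa
RpL30, chr2L:19009262-19009290, - strand, summit at +11: atccccccgtcGGTCACACcaacacaaac
RpL37A, chr2L:5070979-5071007, + strand, summit at +18: TATCGagcggcGGTCACACttttcgctct
msn, chr3L:2586525-2586553, - strand, summit at +37: cggctaattGGTCACACtgttggaatccg
At RpS15Aa the centre of the DRE core was 4.5 bp upstream of the TSS and at fz3 its 2 copies were centred 0.5 bp upstream and 18.5 bp downstream. The Motif 1 core at RpL30 was centred 30.5 bp downstream of the TSS and at RpL37A 36.5 bp downstream.

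Downstream summits became rarer with distance into the gene and then more frequent again towards the limit. Their median distance was 140.5 bp, with quartiles of 53.25 and 336 bp. There were 59 in the first 50 bp (1.18 per bp), 34 at 51 to 100 bp (0.68 per bp), 47 at 101 to 200 bp (0.47), 30 at 201 to 300 bp (0.30), 25 at 301 to 400 bp (0.25) and 43 at 401 to 500 bp (0.43). The upstream side had 2.94 summits per bp at 101 to 200 bp, its highest value, and 2.00 in its first 50 bp, so the density stepped down across the TSS without a gap. The plot of summit positions shows fewer summits downstream than upstream in the main list and in both replicates' lists. At the TSS itself the main list went from 59 to 27 summits per 25 bp and that of replicate 2 from 27 to 17. The list of replicate 1 had 21 in the 25 bp on each side and 11 in the next 25 bp downstream.

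**Figure D1:**
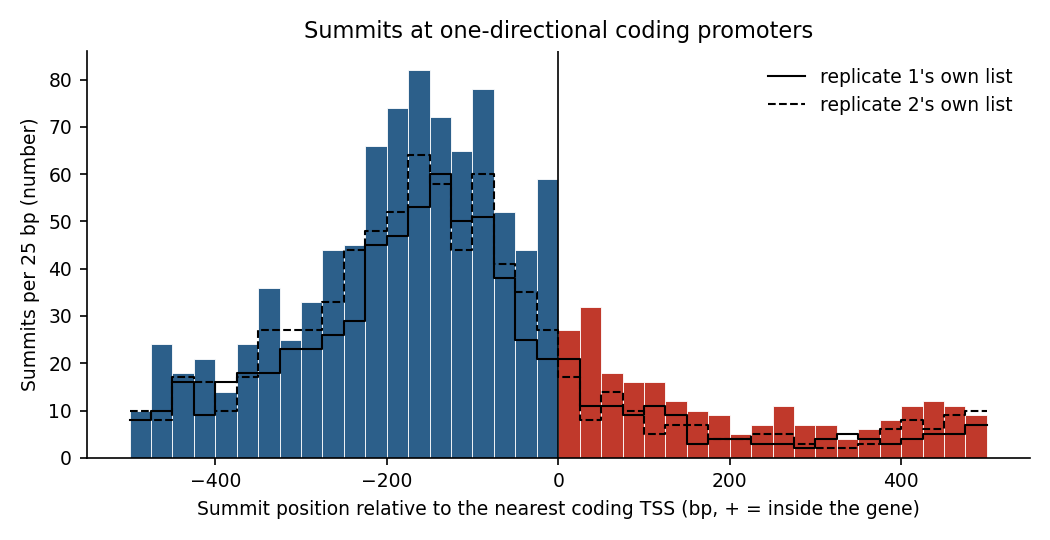
Number of summits per 25 bp at one-directional coding promoters against position relative to the nearest coding TSS, for the main list (blue upstream, red downstream) and for the lists of replicate 1 (solid line) and replicate 2 (dashed line). The main list had 59 summits in the 25 bp up to and including the TSS, 27 in the next 25 bp and 32 in the 25 bp after those.

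The summit position was read at the limits of the rule as follows. Just inside, the summits at Tig and CG42806 lay 1 and 2 bp downstream with signals of 97.0 and 52.5, and just outside, 3 summits lay exactly at the TSSs of MRP, koi and hpo with signals of 81.6, 65.6 and 65.5. At the far limit the summit of CG15247 lay at 500 bp with a signal of 121, the only one from 491 to 500 bp, and 5 summits past 500 bp and up to 520 bp had a median of 103. The signal values are the authors' peak-caller scores, on a scale not given in the sources used here, and they serve only to rank and describe peaks. The 10 summits at 1 to 10 bp downstream had a median signal of 65.3 and the 24 at 0 to 10 bp upstream one of 65.5. At the near limit the sides were thus alike in signal.

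The replicates placed most of these summits on the same side of the TSS. Each member was matched to the overlapping peak with the nearest summit in each replicate's ranked list, which found a match for 235 in replicate 1 and 235 in replicate 2. The replicate summit was a median of 12 bp away in replicate 1 and 17 bp in replicate 2. It also lay 1 to 500 bp downstream of the same TSS for 211 of 235 members in replicate 1 and for 208 of 235 in replicate 2. Of the 233 members matched in both, 192 were downstream in both replicates, 23 were at or upstream of the TSS in 1 replicate and 9 in both. In the first 50 bp only 39 of 59 were downstream in both, against 42 of 47 at 101 to 200 bp and 27 of 28 at 201 to 300 bp. Past 100 bp the side was thus the same in both replicates for most summits, while within 50 bp of the TSS it changed with the replicate for 15 summits and was upstream in both for 5. A match can be a neighbour's peak. Of the 26 members whose interval a stronger main-list peak overlapped, 22 shared a matched peak with another main-list peak, as did 12 of the other 212. Among the members upstream in both replicates, CG43078, CG30349, CG15083, ush and Csp were overlapped members with a shared match. Counts without crowded peaks are not given here.

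Downstream summits had lower signals than upstream ones in every list. In the main list the median signal was 69.9 (quartiles 55.4 and 111) downstream, 100.3 (68.6 and 169) upstream and 102 at promoters with TSSs on both strands. The ratio of the downstream to the upstream median was 0.696 in the main list, 0.817 in the list of replicate 1 (55.7 against 68.2) and 0.810 in that of replicate 2 (52.6 against 64.9). The lowest signal quartile of the main list, below 63.9, held 42.4% of the members and 19.2% of the upstream summits, and the highest, from 149, held 14.7% and 30.5%. From the lowest to the highest quartile the downstream share of one-directional summits went from 37.3% to 19.0%, 18.3% and 11.5%. By distance, the members' median signal ranged from 63.1 at 201 to 300 bp to 81.0 at 401 to 500 bp, and in each of the 6 distance ranges it was below that of upstream summits as far from the TSS.

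A cluster of very low signals belonged to summits beside a stronger peak. Of the 238 members, 26 (10.9%, 7.56 to 15.5%) had an interval that overlapped a stronger peak of the same list, against 30 of 886 upstream summits (3.39%) and 33 of 601 at promoters with TSSs on both strands (5.49%). Over all main-list peaks it was 215 of 3810 (5.64%). The difference from the upstream class was 7.54 points (95% Newcombe interval 3.90 to 12.2). The 26 had a median signal of 8.55, a median of 0.126 of the stronger peak's value, and 24 of them were below 30, against 3 of the other 212. The distance to the stronger summit was never under 199 bp, with a median of 203 bp and a maximum of 267 bp. The stronger summit was itself downstream for 10, upstream for 10, between TSSs of both strands for 4 and elsewhere for 2. Their IDR scores, the authors' score of agreement between replicates, ran from 859 to 1000, and 18 of the 26 had the highest score of 1000 (69.2%), as did 155 of the other 212 (73.1%). Why they are in the list was not tested.

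At scyl, whose product restrains growth through the TOR pathway, the summit at +41 had a signal of 71.1 and that at +242 a signal of 4.09. At Sik3, a salt-inducible kinase, the values were 126 at +189 and 3.59 at +388. At CHES-1-like, a forkhead transcription factor, they were 133 at +266 and 9.54 at +57, so the weak summit could be on either side of the strong one. CG10311 differed from these, with a signal of 247 at +430 beside a stronger summit of 443 that lay 203 bp away. In the replicates 22 of the 26 shared their nearest matched peak with another main-list peak, against 12 of the other 212, so their replicate values are in part those of the neighbour. At ras, for instance, the summits at +49 and +248 were both matched to 1 peak in each replicate, with values of 22.9 and 38.6.

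Without the overlapped peaks in either class, the lower signal of downstream summits was still there and smaller. The median of the remaining 212 members was 75.9 and that of the remaining 856 upstream summits 103, a ratio of 0.736. The downstream share was then 19.9% (17.6 to 22.3%).

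**Figure D2:**
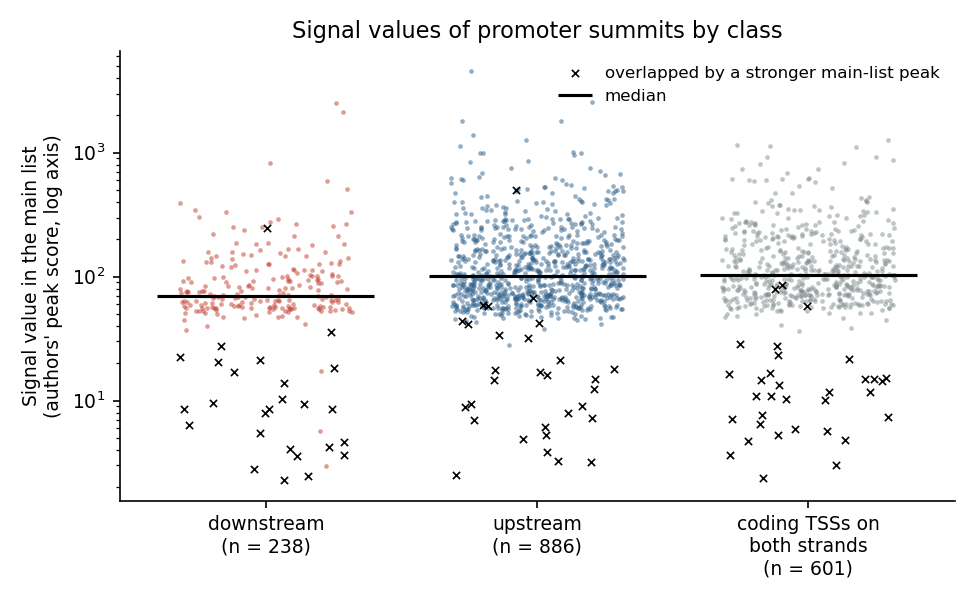
Signal value of each main-list summit at promoters (log axis), by class, with the class median as a line. Crosses are peaks overlapped by a stronger peak of the list, which make up nearly all values below 30 in each class; the medians were 69.9 downstream, 100.3 upstream and 102 where coding TSSs lay on both strands.

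Downstream summits were also found less often in the replicates' own lists. Both replicates' lists overlapped 84 of the 238 members (35.3%, 29.5 to 41.6%), against 48.9% of all main-list peaks, 55.4% of upstream summits and 57.9% at promoters with TSSs on both strands. The difference from upstream summits was -20.1 points (-26.8 to -13.1). Neither list overlapped 81 members (34.0%), against 22% of all peaks and 18.8% of upstream summits. The list of replicate 1 overlapped 119 of the 238 members and 65.0% of upstream summits, and that of replicate 2 overlapped 122 (51.3%) and 71.6%, so the shortfall was there in each replicate. The conservative list overlapped 189 members (79.4%), 86.7% of all main-list peaks and 89.5% of upstream summits. Without overlapped peaks the share in both lists was 37.3% of 212, and the difference from upstream summits was -18.8 points (-25.9 to -11.3).

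The shortfall went with signal. Among summits in the lowest signal quartile, 6 of 101 downstream and 10 of 170 upstream summits were in both lists, 5.94% and 5.88%. In the third quartile the shares were 80.4% of 51 and 77.6% of 228, and in the highest 97.1% of 35 and 98.1% of 270. In the second quartile the interval of the difference did not include 0, at 5.88% of 51 and 17.9% of 218, a difference of -12.0 points (-18.8 to -1.0).

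Over the 233 members matched in both, the Pearson correlation of the log2 values was 0.71, against 0.84 over 873 upstream summits, as a description across peaks that share 2 libraries. The SD of the log2 ratio of replicate 1 to replicate 2 was 0.80 over members and 0.61 over upstream summits, around means of 0.02 and -0.07. Without peaks overlapped by a stronger one, a setting chosen after seeing the data, the correlations were 0.78 (207 members) and 0.88 (844 upstream summits) and the SDs 0.65 and 0.52. Leaving out instead every peak whose matched replicate peak also matched another peak of the main list gave 0.82 (199 members) and 0.88 (812), and SDs of 0.62 and 0.51. The spread was wider over the members in all 3 comparisons, and narrower without the crowded peaks.

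**Figure D3:**
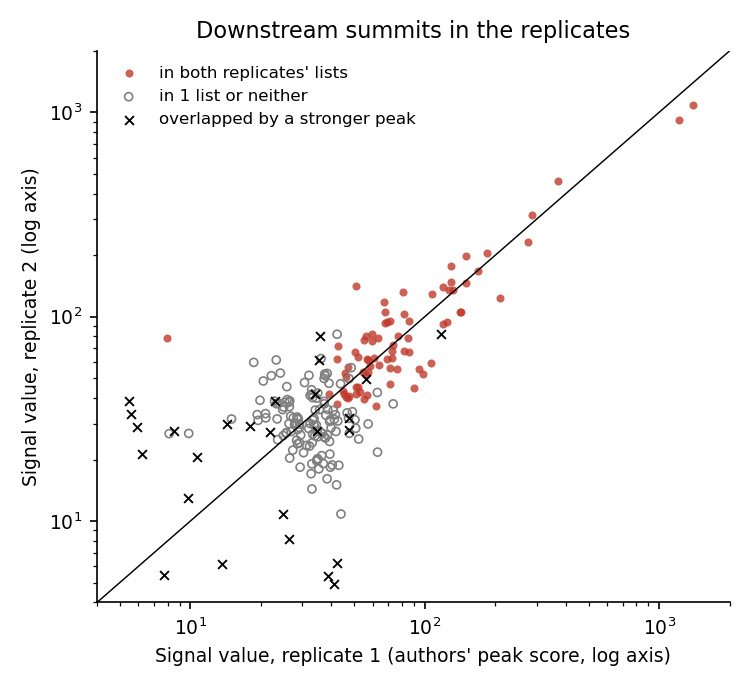
Signal value of each matched downstream summit in replicate 1 against replicate 2 (both log axes), with the line of equal values. Filled points are in both replicates' own lists, open points in 1 or neither, and crosses are members overlapped by a stronger peak; the SD of the log2 ratio was 0.80 over all points and 0.65 without the crosses.

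The members with the largest replicate differences among those in both lists differed in size between the directions. Higher in replicate 1 were Agpat4, an acyltransferase of phospholipid synthesis (13.7 and 6.19, log2 ratio 1.15), CG2082 (89.9 and 45.0), CG18467 (98.0 and 52.6), Arpc2, a subunit of the actin-nucleating Arp2/3 complex (106 and 59.3), and CG12316 (94.8 and 55.7). These were at most 1.15 on the log2 scale. Higher in replicate 2 were mbl, the splicing regulator muscleblind (7.92 and 78.7, log2 ratio -3.31), ttv, a heparan sulfate polymerase (5.59 and 33.6), CG2811 (50.9 and 141), CHES-1-like (35.8 and 80.3) and Gpat4, a glycerol-3-phosphate acyltransferase (14.3 and 29.9). At mbl and ttv the replicate 2 value came from the peak that also matched the stronger upstream summit at the gene, whose main-list signals were 132 and 67.7, and at CHES-1-like from the peak that matched the stronger of its own summits. CG2811 had no other main-list summit within 1000 bp, but its replicate 1 summit lay 67 bp upstream and its replicate 2 summit 7 bp downstream of the TSS. The Agpat4 summit, with 36.0 in the main list, was overlapped by a peak of 79.1 whose summit lay 205 bp away. That of Gpat4, with 2.83, was overlapped by a peak of 103 at 199 bp. Its replicate 1 summit lay 58 bp downstream and its replicate 2 summit 33 bp upstream of the TSS.

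The 5 strongest members found in neither replicate's list had signals near the members' median. They were CG3788 (84.5 in the main list, 50.4 in replicate 1 and 31.3 in replicate 2), Kdm5, a histone H3 lysine demethylase (75.9, 33.2 and 40.2), Pcyt1, an enzyme of phosphatidylcholine synthesis (72.8, 35.0 and 42.3), scyl (71.1, 41.1 and 31.5) and pk, the planar polarity gene prickle (68.0, 47.3 and 31.9).

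In the deposited ranked lists, which also hold the peaks left out of the main list, the downstream share rose with falling signal. It was 11.3% (8.20 to 15.3%) of one-directional summits in ranks 1 to 1000 of the list for both replicates together, 18.9% in ranks 1001 to 2000 and 24.1% in ranks 2001 to 4000. It then went to 45.2% in ranks 4001 to 8000, 56.5% in ranks 8001 to 16000, 60.1% in ranks 16001 to 32000 and 61.5% (60.4 to 62.6%) beyond. Each replicate showed the same course, from 11.8% to 60.6% in replicate 1 and from 13.3% to 60.2% in replicate 2. So the strongest peaks at these promoters were mostly upstream, and past rank 8000 downstream summits outnumbered upstream ones in all 3 lists. In all, 6924 ranked summits met the position rule and 269 of them overlapped a main-list peak. On the 7 chromosomes the whole ranked list held 98900 peaks and the main list 3810. The low count is therefore not particular to downstream summits.

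**Figure D4:**
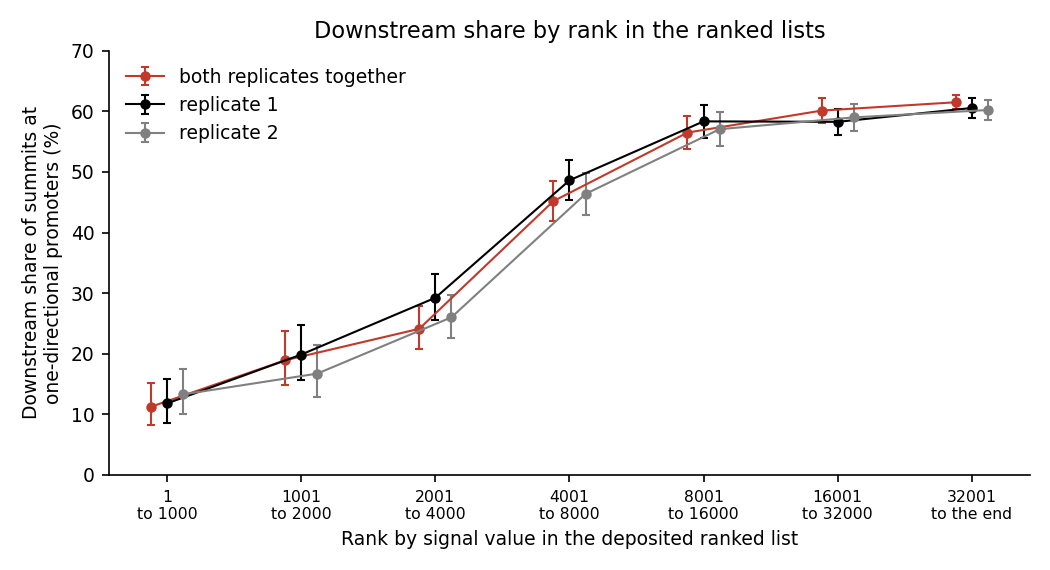
Share of summits at one-directional coding promoters that were downstream of the TSS, by rank of signal value in the ranked lists of both replicates together, replicate 1 and replicate 2; bars are 95% Wilson intervals. All 3 lists rose from between 11.3% and 13.3% in ranks 1 to 1000 to between 60.2% and 61.5% past rank 32000.

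By location, 161 members (67.6%) lay inside the first exon of a transcript starting at the nearest TSS, 69 (29.0%) in an intron and 8 in a later exon. The summit was in the 5' untranslated part of the first exon for 146 and in coding sequence for 20. First-exon summits were 58 of 59 in the first 50 bp and 11 of 43 at 401 to 500 bp, where 30 were intronic. The peak interval, 336 bp wide for 208 members, reached back over the TSS for 124 (52.1%), and upstream intervals reached it for 42.2%, a difference of 9.89 points (2.76 to 16.9). This measure is tied to distance and width, in which the classes differed. It held for all 59 members in the first 50 bp and all 34 at 51 to 100 bp. At 101 to 200 bp it held for 30 of 47, and at 201 to 300 bp for 1 of 30. A width of 336 bp was the usual one in the list, and 87.4% of members had it against 75.2% of upstream summits.

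The gene had more than 1 annotated coding TSS for 172 members (72.3%, 66.3 to 77.6%), for 59.7% of upstream summits (56.4 to 62.9%) and for 26.5% of all 13968 coding genes. The rule took the TSSs of all transcripts, so a gene with more TSSs had more places where a summit could meet it. The shares over summits and over genes are therefore not like for like. The nearest TSS was the gene's most 5' one for 128 members (53.8%) and 64.6% of upstream summits, and 41 members were also upstream of another TSS of the same gene within 500 bp. Such a summit is downstream of 1 start and upstream of another. A non-coding TSS on the other strand lay within 500 bp of 12 members, and for 38 a coding one lay past 500 bp and up to 1000 bp away. Another main-list summit lay within 1000 bp of 80 members (33.6%) and of 19.6% of upstream summits, a difference of 14.0 points (7.65 to 20.7). These shares include the 26 members and 30 upstream summits overlapped by a stronger peak, whose stronger summits lay at most 275 bp away. No value without the overlapped peaks is given here.

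The summits were spread over the chromosome arms, with 42 on 2L, 50 on 2R, 52 on 3L, 50 on 3R and 44 on X, and none on 4 or Y. The downstream share of one-directional summits lay between 19.7% on 2L and 22.8% on 3L, with Wilson intervals that all overlapped.

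The 238 summits belonged to 223 genes, 1.6% of the 13968 protein-coding genes, where upstream summits belonged to 824 (5.9%). Of the 223 genes, 15 had 2 downstream summits, 47 were also the nearest gene of an upstream summit and 11 of a summit between TSSs of both strands. At 10 of the 15 the weaker summit's interval overlapped that of the stronger one. At 10 of the 47 a downstream summit's interval overlapped that of a stronger upstream summit of the gene. The summits of such a gene may not be separate sites.

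The 20 strongest members had signals from 222 to 2539, and only 3 of them were among the 100 strongest peaks of the list. In both replicates' lists were 19 of the 20, the exception being CG10311, which was in that of replicate 1 only, and all 20 had replicate summits downstream of the same TSS in both replicates. Of the 20, 13 lay past 100 bp, and 12 were in a first exon and 8 in an intron. These shares were near those over all 238 members, of which 145 lay past 100 bp. Of the 238, 161 were in a first exon and 69 in an intron.

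CG9331 stood apart, with the strongest and the second strongest of all members. Its summit at +264 of an internal TSS (chr2L:20823906) had a signal of 2539 in the main list, 1388 in replicate 1 and 1081 in replicate 2. The summit at +123 of the most 5' TSS, 955 bp away, had 2135, 1215 and 912. These were ranks 10 and 13 of the whole list. Next came GstE13, a glutathione S-transferase of the epsilon class, at +71, with 826 in the main list, 369 in replicate 1 and 460 in replicate 2. At ph-p, the proximal polyhomeotic gene, whose product is a subunit of the Polycomb repressive complex 1, the summit was at +484 with 595, 288 and 316. CG7627 had 514, 276 and 232 at +26. These 5 summits had higher values in the main list and in each replicate than any other member, and their log2 ratios of replicate 1 to replicate 2 lay between -0.32 and 0.41.

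The remaining 15 lay between 222 and 391 in the main list. Ufsp1, a protease of the ubiquitin-like modifier UFM1, had 130 and 177 in replicates 1 and 2 at +21. Xrp1, a stress-induced bZIP transcription factor, had 142 and 106 at +13, and mam, the Notch coactivator mastermind, had 141 and 105 at +64. These 3 were close to the TSS, inside the 5' untranslated region. The summits of egh, a glycosphingolipid mannosyltransferase (129 and 148 at +344), aru, an EPS8-related adaptor (132 and 135 at +489), Cftr, a chloride channel (127 and 135 at +180), Eip63F-1, an ecdysone-inducible calcium-binding protein (108 and 128 at +462), and scramb2, a scramblase (120 and 92.1 at +367), lay deeper, and those of aru, Cftr, Eip63F-1 and scramb2 were intronic. The others were CG18622, CG31612, CG11811, CG2162, CG9399, CG8128 and CG10311, of which CG11811 had its summit in coding sequence (169 and 168 at +195).

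Some of these genes also had an upstream summit at another start. At aru the intronic summit had 267 in the main list and the summit 202 bp upstream of another TSS had 269, with 126 and 150 in replicates 1 and 2. At egh the downstream summit had 278 and the upstream one, at another TSS, 63.3. At Xrp1 the values were 251 at +13 and 53.3 at 329 bp upstream of another TSS.

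Among 15 gene lists, cytoplasmic ribosomal proteins were the only one with more than 2 genes among the 223. They were RpL30, RpS15Aa, RpL26, RpL37A, RpS23, RpL7A and RpS15, 7 of 93 genes (7.53%) against 1.6% of all coding genes, and 22 of the 93 (23.7%) were nearest to an upstream summit against 5.9%. As the list stood above all genes in both classes, its count is a description and says nothing particular to the downstream side. RpL30 had a signal of 156 in the main list, 85.3 in replicate 1 and 66.9 in replicate 2, and RpS15Aa 125, 71.4 and 56.0, both at +11. RpL26 had 94.6, 47.0 and 40.1 at +65, in an intron, and RpL37A 92.1, 50.8 and 45.5 at +18. RpS23 (90.2), RpL7A (62.3) and RpS15 (56.3) were weaker, at +7, +10 and +110. So 5 of the 7 summits lay within 20 bp of the TSS, where the side of the TSS was least stable between replicates over the members as a whole.

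Of the other lists, translation factors had eEF2, the translocation factor of elongation (102, with 45.7 and 53.2 in replicates 1 and 2, at +62), and eEF5, the hypusine-containing factor (88.6, with 23.3 and 61.4, at +20), 2 of 52 genes (3.85%). Cuticle proteins had Cpr51A (46.8, with 29.4 and 18.4, at +81), 1 of 95 genes (1.05%). None of the genes of the 12 other lists was nearest to a downstream summit: mitochondrial ribosomal proteins, oxidative phosphorylation, aminoacyl-tRNA synthetases, proteasome, vacuolar ATPase, snRNP proteins, mitochondrial import, RNA polymerase subunits, Mediator and TFIID, nucleoporins, chaperonin and chemoreceptors. The largest of these, chemoreceptors, had 179 genes, and the mitochondrial ribosomal proteins had 73.

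Downstream summits lay in DNA richer in G and C than upstream summits. The 101 bases around downstream summits had a mean GC content of 44.2% (SD 10.7%, n = 238), against 42.1% in windows 300 bp to each side and 44.9% at the same distances downstream of all coding TSSs. Upstream summits had 35.5% (SD 10.9%, n = 886), against 42.1% in their flanks and 39.2% at the same distances upstream of all coding TSSs, and summits at promoters with TSSs on both strands had 31.8%. The downstream and upstream means were 42.8% and 34.1% in the list of replicate 1 and 40.9% and 34.6% in that of replicate 2, so the order was the same in both. Along the gene, the mean over 21 bases around downstream summits was 46.4% at 100 bp before the summit, 43.3% at the summit and 45.1% at 100 bp after it, and that around upstream summits was 36.5%, 35.1% and 44.6%. Both classes were thus lower at the summit than 100 bp to either side, the upstream one by more on the downstream side. The summit was below its own flanks in 39.5% of members and in 67.9% of upstream summits.

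Within the members the GC content went with signal and distance. It was 41.8% in the 119 members at or above the members' median signal and 46.7% in the 119 below it, and 40.1% in the 84 that were in both replicates' lists. In the last set the flanks had 42.1%. Members at 1 to 100 bp had 46.4% against flanks of 40.3%, and those at 101 to 500 bp 42.8% against 43.2%. Leaving out members that a stronger peak overlapped gave 44.0% (n = 212). Among the 20 strongest it ran from 19.8% at ph-p to 60.4% at mam, and over all members from 16.8% at Gli to 68.3% at Hakai and LamC.

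**Figure D5:**
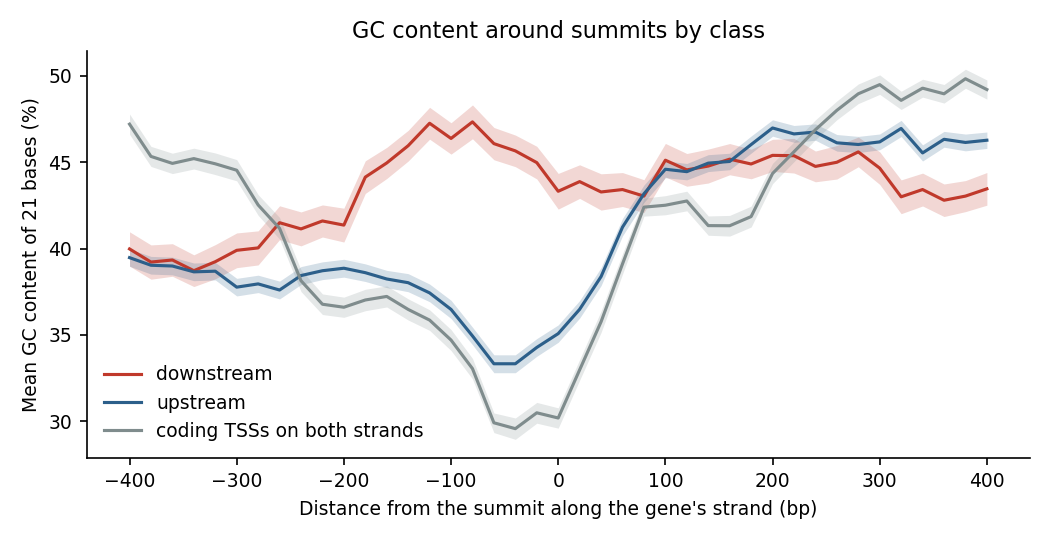
Mean GC content of 21 bases against distance from the summit along the strand of the gene, for downstream summits, upstream summits and summits at promoters with coding TSSs on both strands; bands are 1 standard error over summits. At the summit the means were 43.3%, 35.1% and 30.2%, and all 3 were lower than 100 bp after the summit, by the least in the downstream class. In no class was the summit the lowest point of the profile.

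Of 12 sequence elements, TATAAA, the Ohler motif 7 core and the DRE core were rarer at downstream than at upstream summits in the main setting. Of these 3, only the DRE core was compared between the classes under other settings. TATAAA was within 50 bp of 27 members (11.3%), 22.2% of upstream summits, a difference of -10.9 points (-15.4 to -5.55), beside 9.36% of windows at the members' distances and 17.2% at the upstream summits' distances from all coding TSSs. The Ohler motif 7 core CANCNCT was at 10.9% of members and 19.98% of upstream summits, a difference of -9.05 points (-13.4 to -3.82), beside 14.9% and 15.6% at these distances. The DRE core was at 6 members (2.52%) and 58 upstream summits (6.55%), a difference of -4.03 points (-6.30 to -0.81), beside 4.33% and 6.52% at these distances. That difference was -3.65 points (-6.99 to 1.10) with a 250 bp window, -0.72 points (-4.21 to 3.88) with 1 TSS per gene and -5.40 points (-8.66 to -1.19) with 201-base windows, so for the DRE core the interval excluded 0 under some settings and not under others. The Motif 1 core was at 3 members (1.26%) and 8 upstream summits (0.90%). Of the 6 members with a DRE core, 4 lay within 100 bp of the TSS, as did all 3 with Motif 1. TATAAA was at 5.38% of the 93 members at 1 to 100 bp and at 15.2% of the 145 past 100 bp. The Ohler motif 7 core went the other way, at 18.3% and 6.21%.

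For Motif 1 and the 8 other elements the intervals of the difference from upstream summits included 0. The 8 were the E-box CAGCTG (6.72% of members and 4.85% of upstream summits), GAGAG (10.5% and 12.2%), TCAGT (18.5% and 18.4%), the Ohler motif 6 core GTATNTTT (5.46% and 5.08%, beside 2.91% of windows at the members' distances), CGATA (14.3% and 18.7%), CACACA (9.24% and 6.32%), GCCAT (14.3% and 13.4%) and the Zelda core CAGGTAG (0.84% and 0.45%). Intervals that include 0 do not show that the classes are alike.

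Within 50 bp of the TSS, the DRE core was at 6.14% of the 228 starts nearest to members, 9.19% of the 860 nearest to upstream summits and 11.1% of all, TATAAA at 8.77%, 7.79% and 15.5%, and GAGAG at 21.9%, 19.7% and 12.7%. Every interval of the difference between the first and the second set included 0, for the 12 elements and for CTTT placed at the start; for the DRE core it was -3.05 points (-6.28 to 1.23).

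For most of the 6-letter words that led at downstream summits, the excess was smaller or gone on other chromosomes. The 10 words most in excess over the flanks on 2L, 2R and X had a median excess of 6.43 percentage points of windows there (136 members) and of 0.74 on 3L and 3R (102 members), where 6 of the 10 were still higher at the summit than in the flanks. ATGAAA went from 6.25 to 5.88 points, CGGCCA from 6.99 to 5.39 and CGAGAA from 7.35 to 3.92, and these 3 held the most of the 10. For upstream summits the 10 words found in the same way consisted of A and T only, with median excesses of 13.1 and 12.7 points, and all 10 were higher on 3L and 3R. The members' set is smaller, so their excesses carry more counting error.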

How the data were processed

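The data are peak lists from anti-GFP ChIP-seq of 2 biological replicates. Per the deposited description files the lists are in dm6 and were made from replicate and control alignments. For aligner, peak caller, versions and read depth, nothing is given in the sources used here. Intervals, summits, signal scores and IDR scores are the authors', as deposited; all scores in the main list are 830 or more. The main list has 3815 peaks, of which 5 outside the 7 chromosomes were left out.

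Summits (start plus offset, 1-based) were classed by coding TSSs of all transcripts in Ensembl release 115 (BDGP6.54); the 3 summits exactly at a one-directional TSS counted as upstream, and 1 member tied between a downstream and an upstream TSS counted as downstream. Overlap meant 1 bp or more. Peaks are not replicates, so no p-values are given: shares have 95% Wilson and differences Newcombe intervals, and replicate values stand beside them. Elements and GC content used 101 bases. Members, gene lists, elements and settings were chosen with earlier results of these data known. Named genes were the 20 strongest members, up to 4 per gene list, the summits nearest the limits of the rule, the 5 with the largest replicate ratio each way, the 5 strongest in neither list and up to 4 per DRE or Motif 1 core; other genes named beside a stronger peak were chosen after their values were seen. A list for septate junctions was not run. Code (Python 3.11.15, numpy 2.4.6, pandas 2.3.3, scipy 1.17.1, matplotlib 3.10.9) was tested on simulated data.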

Additional observations from a re-analysis of the deposited data

Results flagged for a closer look

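In the ranked list for both replicates together, 4 summits met the same position rule, overlapped no main-list peak and yet had a signal at or above the members' median of 69.9; they are flagged because they lie in data outside the main list. They were Ubi-p63E, a polyubiquitin gene, at +115 (132 in the ranked list, 59.4 in replicate 1 and 75.0 in replicate 2), Lk6, a kinase, at +469 (103, 63.5 and 40.9), CG42788 at +102 (97.2, 42.7 and 53.3) and CG10939 at +79 (79.7, 39.5 and 42.7). Their IDR scores were 1000 for the first 3 and 774 for CG10939, and the lowest in the main list was 830. CG10939 overlapped a peak in the list of replicate 2, and the other 3 overlapped a peak in neither replicate's list.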

How the results depend on the processing

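Downstream summits had a lower median signal, a lower share in both replicates' lists and a higher mean GC content than upstream ones in all settings where both classes were computed, although at or above the list's median signal the shares in both lists were 87.2% and 88.8%. Leaving out 1 replicate gave 128 to 135 downstream summits, a downstream share of 16.9% to 17.9%, a median distance of 128 to 175 bp, a ratio of signal medians of 0.810 to 0.817, TSS-spanning intervals in 44.4% to 57.0%, first-exon summits in 59.3% to 68.0%, and a mean GC content of 40.9% to 42.8%; a share in both lists cannot be had from 1 list. At or above the list's median signal there were 86 downstream summits, a share of 14.7%, a median distance of 176 bp, a signal ratio of 0.844, 45.3% spanning the TSS, 60.5% in a first exon and a GC content of 40.2%. A 250 bp window gave a share of 18.1%, a median distance of 64 bp, a ratio of 0.686, 81.6% spanning the TSS, 89.4% in a first exon and a DRE core at 5.59%. A 1000 bp window gave 27.2%, 441 bp, 0.793, 28.4% and 41.3%, with a GC content of 40.9%. With 1 TSS per gene the share was 24.7%, the ratio 0.751, the DRE core share 6.40% and the GC content 42.5%. A 201-base window had a DRE core at 5.88%. The signal ratio was 0.716 in the conservative list, 0.686 with no TSS of any kind on the other strand, and, under settings chosen after seeing the data, 0.751 for members downstream in both replicates, 0.689 without CG9331 and 0.736 without peaks overlapped by a stronger one. The setting of members downstream in both replicates filtered the members only (192). Its signal ratio, share in both lists and mean GC content were set against all 886 upstream summits. In all, 41 values were marked as moved, by the replicate spread or the counting interval, and 55 were not. Among the 55 were the 128 bp, 57.0% and 68.0% of replicate 1 alone. Also among them were 179, 356 and 203 downstream summits, with a 250 bp window, a 1000 bp window and 1 TSS per gene. These lay further from the 238 of the main setting than the SD of 4.95 between the replicates' lists. For the number of summits the mark therefore does not show that it held. The cause was not tested, except that each window sets the distances it allows. No paired analysis was possible because there is 1 group. Read depth is unknown, and no control was analysed.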
